A study of Drosophila melanogaster with 2 samples.

Results

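The 73 mitochondrial ribosomal protein genes were taken from the 13968 protein-coding genes of the Ensembl 115 annotation as those whose names begin with mRpL or mRpS. By name, 47 of them belong to the large subunit (mRpL) and 26 to the small subunit (mRpS). Counts by subunit below follow these names, and the place of each protein in the ribosome was not checked. Binding of Ets98B, a fly transcription factor of the ETS family, was measured by ChIP-seq, in which DNA bound by a protein is recovered with an antibody and sequenced. The only group consisted of whole pupae of Drosophila melanogaster aged 2 days, of a transgenic strain that carries Ets98B fused to eGFP, and was represented by 2 biological replicates immunoprecipitated with an antibody against GFP. The values therefore mix all pupal tissues, and the regulatory sequence that drives the fusion gene was not given in the sources used here. No control sample was analysed here, and all comparisons are with other genes in the same peak lists. A gene is called bound where the summit of a peak in the conservative list, which the authors made from both replicates, lies within 500 bp of a transcription start site (TSS) of any of its transcripts. Strength is given as the signal value of the authors' peak caller, whose scale is not stated, and the lists hold no read counts, so that the depth behind a value is unknown. Wilson intervals cover counting error only.

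Mitochondrial ribosomes translate the few proteins encoded by mitochondrial DNA, which are core subunits of the respiratory chain and of ATP synthase. Their RNA comes from the mitochondrial genome, but all their proteins are encoded in the nucleus, made in the cytosol and imported. The genes of these proteins are spread over the chromosomes, and fly genes are often arranged head to head, with a pair of starts that face away from each other across a short stretch of DNA. At such a divergent promoter a peak near one start can also be near the other.

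The bound mitochondrial ribosomal protein genes were mostly of this kind, and the DNA at the summit is shown for the 6 with the strongest peaks among those whose summit lies outside annotated exons and for which sequence is given here. Each is written 5′ to 3′ on the strand of the ribosomal protein gene, so that the neighbour's start nearest to the summit lies to the left and the ribosomal protein gene to the right. The sequences come from the Release 6 reference assembly, in dm6 coordinates. Capitals mark the ETS core GGAA, or TTCC where it lies on the opposite strand.
mRpS23, minus strand, chr2L:13835283-13835563: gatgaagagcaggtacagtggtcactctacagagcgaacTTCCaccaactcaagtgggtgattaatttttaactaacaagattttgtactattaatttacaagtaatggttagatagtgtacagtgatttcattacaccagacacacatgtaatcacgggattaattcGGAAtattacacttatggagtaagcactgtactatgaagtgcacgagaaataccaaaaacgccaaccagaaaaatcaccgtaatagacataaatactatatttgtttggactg
mRpS10, plus strand, chr3R:15229409-15229664: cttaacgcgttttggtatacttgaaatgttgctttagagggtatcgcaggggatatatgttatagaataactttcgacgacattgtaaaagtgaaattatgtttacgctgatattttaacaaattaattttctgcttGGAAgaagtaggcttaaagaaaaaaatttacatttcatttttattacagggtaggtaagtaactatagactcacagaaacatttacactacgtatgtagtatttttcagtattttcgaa
mRpL24, minus strand, chr2L:4945362-4945578: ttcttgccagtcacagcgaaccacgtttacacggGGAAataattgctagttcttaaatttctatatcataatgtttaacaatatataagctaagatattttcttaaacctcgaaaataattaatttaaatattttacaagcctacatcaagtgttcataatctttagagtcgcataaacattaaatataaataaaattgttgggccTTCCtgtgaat
mRpS2, minus strand, chr2L:4850420-4850640: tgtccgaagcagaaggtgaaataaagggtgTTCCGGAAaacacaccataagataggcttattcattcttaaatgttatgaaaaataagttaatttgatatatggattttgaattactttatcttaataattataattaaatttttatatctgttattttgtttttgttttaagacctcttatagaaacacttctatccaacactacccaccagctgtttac
mRpL20, minus strand, chr3L:13017985-13018265: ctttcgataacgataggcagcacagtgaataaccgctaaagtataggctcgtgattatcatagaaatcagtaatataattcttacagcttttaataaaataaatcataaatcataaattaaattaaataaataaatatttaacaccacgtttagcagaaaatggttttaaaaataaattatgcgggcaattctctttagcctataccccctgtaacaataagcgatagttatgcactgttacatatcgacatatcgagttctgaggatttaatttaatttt
mRpL2, plus strand, chr3L:11120412-11120609: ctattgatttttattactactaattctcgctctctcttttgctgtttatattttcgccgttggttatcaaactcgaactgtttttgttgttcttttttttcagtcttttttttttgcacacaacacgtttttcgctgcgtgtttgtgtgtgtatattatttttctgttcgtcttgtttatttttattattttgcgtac
The sequences of mRpS10, mRpL24 and mRpS2 span the whole DNA between the 2 starts, those of mRpS23 and mRpL20 hold the end nearest to the neighbour, and that of mRpL2 is intronic DNA of FoxK, next to one FoxK start, with another FoxK start on its other side, 64 bp from mRpL2. In mRpS10 the only GGAA lies 7 bases from the summit, which is at base 131. In mRpS2, TTCC and GGAA lie back to back, 15 bases from the summit at base 53. The nearest core lies 43 bases from the summit in mRpL24 and 59 bases in mRpS23. The stretches of mRpL20 and mRpL2 hold none. The G and C content of the 6 stretches was between 28.1% and 35.9%.

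Of the 73 genes, 19 were bound, a share of 26.0% (95% Wilson interval 17.3 to 37.1%). Among all protein-coding genes 21.4% were bound, and the share among the 13895 others was also 21.4% (2976 genes), which lies within the interval of the members in this list. With a window of 100 bp the order was the other way, with 6 members bound (8.22%), against 9.69% of others. The bound genes included some of the strongest TSS peaks of the whole list, at mRpS23, mRpS10, mRpL41 and mRpL23, but most had a signal of ordinary height. Of the genes named for the large subunit, 10 of 47 were bound (21.3%, Wilson interval 12 to 34.9%). Of those named for the small subunit, 9 of 26 were bound (34.6%, 19.4 to 53.8%), and the intervals overlap.

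Most of these genes shared their promoter with a neighbour. A promoter is called shared where a TSS of another protein-coding gene lies within 500 bp of a TSS of the gene, and single otherwise. Of the 73 mitochondrial ribosomal protein genes 54 had a shared promoter (74.0%), against 30.6% of other protein-coding genes (4255), and in 53 of the 54 the arrangement was divergent. None of the neighbours was itself a member, and 52 of the 54 had 1 such neighbour. Of the 19 bound members, 18 lay at a shared promoter, and in each of the 18 the summit was also within 500 bp of the neighbour's TSS. The remaining one was mRpL41. Among bound other genes the summit of the strongest peak served 2 or more genes in 1312 of 2976 cases (44.1%). Of those 2976 genes 1441 had a shared promoter, so that the 2 groups compared here differ in promoter class.

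Within the class of shared promoters, members and other genes had nearly the same share bound. Of the 54 members 18 were bound (33.3%, Wilson interval 22.2 to 46.6%), and of the 4255 others 1441 were bound (33.9%, 32.5 to 35.3%). Of the 19 members with a single promoter 1 was bound (5.26%, 0.935 to 24.6%), and of 9640 others 1535 were bound (15.9%, 15.2 to 16.7%). With other genes weighted to the numbers of TSSs and of shared promoters that the members have, 25.1% of other genes would be bound, beside the 26.0% of members. With a promoter called shared only where the starts lie within 250 bp, the order of the classes turned round in members: 5 of 26 were bound at shared promoters (19.2%, against 32.1% of others) and 14 of 47 at single ones (29.8%, against 19.1% of others). Members have few annotated TSSs: 67 of 73 have 1 TSS (91.8%), against 73.4% of other genes.

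**Figure D1:**
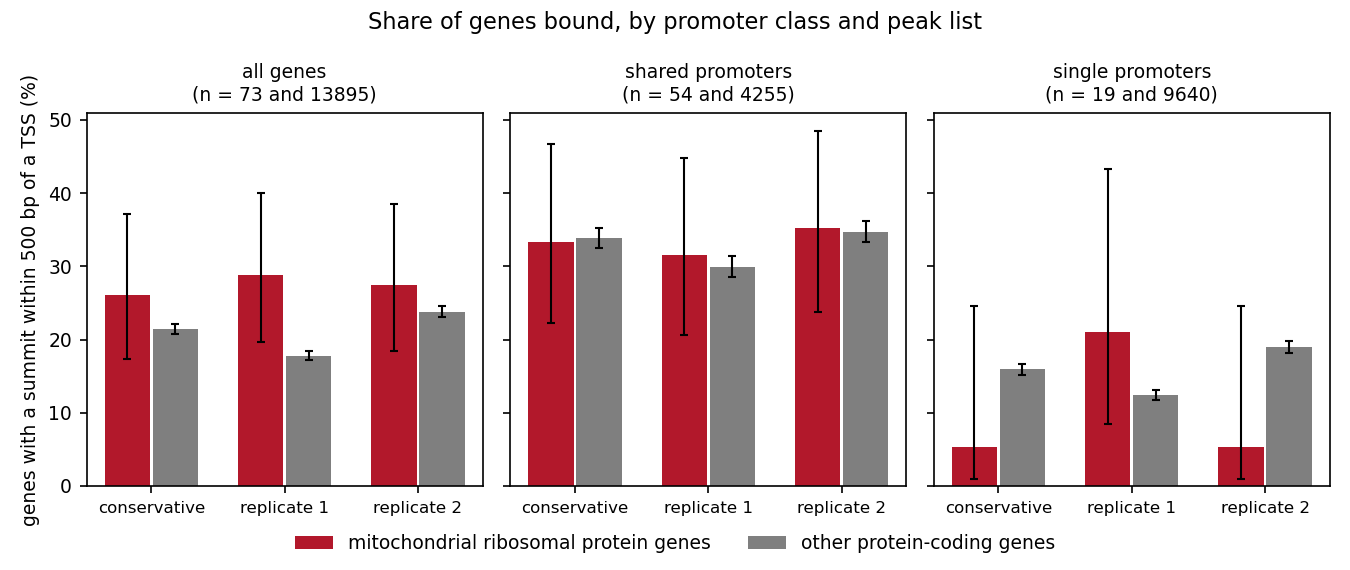
Share of genes with a summit within 500 bp of a TSS (vertical axis, percent) in the conservative list and in the list of each replicate, for all genes, shared promoters and single promoters. Red bars are mitochondrial ribosomal protein genes, grey bars other protein-coding genes, and whiskers 95% Wilson intervals; at shared promoters the red and grey bars are close in each list (33.3% and 33.9% in the conservative list).

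The summits lay upstream of the mitochondrial ribosomal protein genes and often nearer to the neighbour. Of the 19 genes, 18 had the strongest summit upstream of their own TSS (94.7%), with a median of 137 bp upstream and a range from 496 bp upstream to 78 bp downstream. Among bound other genes 78.2% of summits were upstream and the median was 106 bp upstream. In the 1441 of them at shared promoters, 83.4% were upstream and the median was 116 bp upstream. The member's own TSS was the nearest protein-coding TSS to the summit in 9 of 19 cases (47.4%), against 2355 of 2976 (79.1%) in other genes. Where the summit served 2 or more genes, the own TSS was nearest in 8 of 18 members (44.4%) and in 52.7% of other genes.

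**Figure D2:**
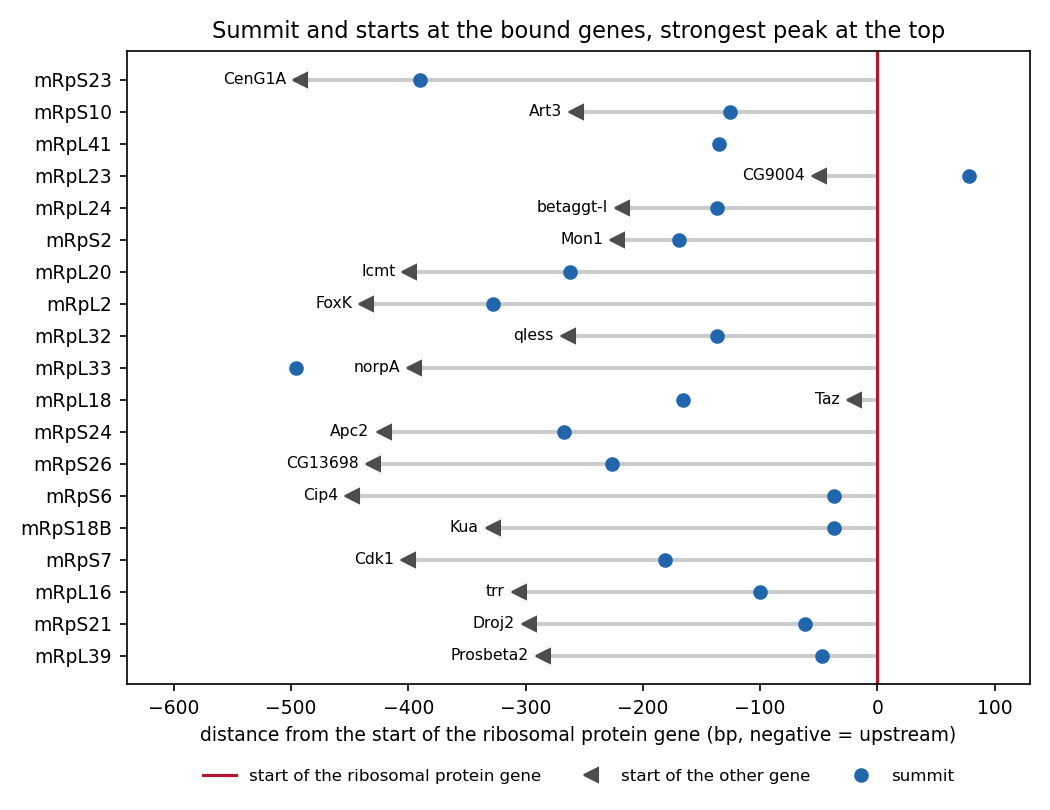
Position of the strongest summit (blue) and of the neighbour's TSS nearest to it (grey triangles, named) relative to the TSS of each bound mitochondrial ribosomal protein gene (red line), in bp along the gene's strand, with the strongest peak at the top; grey bars join the 2 starts. Most summits lie between the starts, and those of mRpL33, mRpL18 and mRpL23 lie outside the interval.

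The strongest peak at a member lay at mRpS23 (FBgn0260407), which encodes a small-subunit protein without a bacterial counterpart. The peak at chr2L:13835303-13835656 had a signal value of 2171 and ranked 5 of 7157 in the conservative list, with values of 1057 in replicate 1 and 1121 in replicate 2. Its summit was 390 bp upstream of mRpS23 and only 102 bp from the TSS of CenG1A, the gene of an Arf GTPase-activating protein, so the neighbour is the nearer gene.

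At mRpS10 (FBgn0038307), the counterpart of a bacterial protein of the small-subunit head, the peak at chr3R:15229368-15229708 had a signal of 1629 (rank 19), with 875 in replicate 1 and 771 in replicate 2. The summit lay almost midway between the starts, 126 bp from mRpS10 and 131 bp from Art3, which encodes an arginine methyltransferase. No start was clearly the nearer one there, although mRpS10 counts among the 9 bound members whose own TSS was the nearest.

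The peak of mRpL23 (FBgn0035335) at chr3L:2373447-2373774 had a signal of 1401 (rank 33), with 802 and 593 in replicates 1 and 2. Bacterial L23 lies at the exit of the ribosomal tunnel. The summit was the only one downstream of a member's start, 78 bp into the 5′ UTR of mRpL23 and 128 bp from CG9004, whose start is 50 bp from the mRpL23 start used.

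The only bound member with a single promoter was mRpL41 (FBgn0034001), which encodes a large-subunit protein without a bacterial counterpart. Its peak at chr2R:15217570-15217915 had a signal of 1560 (rank 22), with 878 in replicate 1 and 673 in replicate 2, and its summit was 135 bp upstream of the gene. No other protein-coding TSS lay within 500 bp of that start, but at least 1 lay within 1000 bp. With a promoter called shared up to that distance, 19 of 60 members were bound at shared promoters (31.7%, against 29.5% of others) and 0 of 13 at single ones, against 15.4% of others.

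Below these 4 came a group with signals between 417 and 631. The peak of mRpL24 (chr2L:4945365-4945622), whose bacterial counterpart also lies near the tunnel exit, had 631 in the conservative list, 313 in replicate 1 and 316 in replicate 2. Its summit was 137 bp from mRpL24 and 81 bp from betaggt-I, the gene of the beta subunit of a geranylgeranyl transferase. The peak of mRpS2 (chr2L:4850464-4850697), counterpart of bacterial S2, had 435, with 217 and 224 in the replicates, and lay 169 bp from mRpS2 and 53 bp from Mon1, whose product acts in the activation of Rab7. The peak of mRpL20 (chr3L:13018026-13018287), counterpart of bacterial L20, had 417, with 191 and 228 in the replicates, and lay 262 bp from mRpL20 and 137 bp from Icmt, the gene of isoprenylcysteine methyltransferase. In all 3 the neighbour was nearer to the summit than the ribosomal protein gene.

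The other 12 bound members had signals between 76.9 and 189. Of the large subunit, mRpL2, the counterpart of a core protein near the catalytic centre, had 189 (73.2 in replicate 1 and 105 in replicate 2), and its summit lay in an intron of the forkhead gene FoxK. At mRpL32, the counterpart of a bacterial large-subunit protein as is mRpL33, the value was 159.8 (98.6 and 60.5), beside qless, a gene of coenzyme Q synthesis. At mRpL33 it was 136 (61.4 and 71.7), with the summit 496 bp from mRpL33 and much nearer to norpA, the phospholipase C gene of phototransduction. These 3 are again nearer to the neighbour, but at mRpL32 the summit was almost midway, 137 bp from mRpL32 and 127 bp from qless.

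At mRpL18 the value was 132 (83.7 in replicate 1 and 47.5 in replicate 2), with the summit in the 5′ UTR of Taz, which encodes tafazzin, an enzyme of cardiolipin remodelling. The starts of mRpL18 and Taz are 20 bp apart, the closest pair among the bound members. The lowest values of the large subunit were 93.6 at mRpL16 (34.1 and 61.3), beside the histone methyltransferase gene trr, and 76.9 at mRpL39 (35.2 and 41.2), beside the proteasome gene Prosbeta2.

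Of the small subunit, mRpS24, whose mammalian counterpart corresponds to bacterial S3, had 127 (66.5 in replicate 1 and 63.3 in replicate 2) beside Apc2, a gene of the APC family of Wnt regulators. The value at mRpS26 was 126 (79.2 and 45.9) beside CG13698, and at mRpS6 it was 124 (78.9 and 62.2), where the summit was 37 bp from mRpS6 and 411 bp from Cip4. At mRpS18B, beside Kua, the signal was 109 (48.2 and 64.0). At mRpS7, which shares its promoter with the mitotic kinase gene Cdk1, it was also 109 (62.5 and 51.1). At mRpS21, beside the DnaJ-like gene Droj2, it was 79.5 (52.6 and 35.99). In mRpS6, mRpS18B, mRpS7 and mRpS21 the ribosomal protein gene was the nearer one. A second peak at mRpS21, 265 bp upstream, had a signal of 19.1 and was matched by no summit of either replicate.

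**Figure D3:**
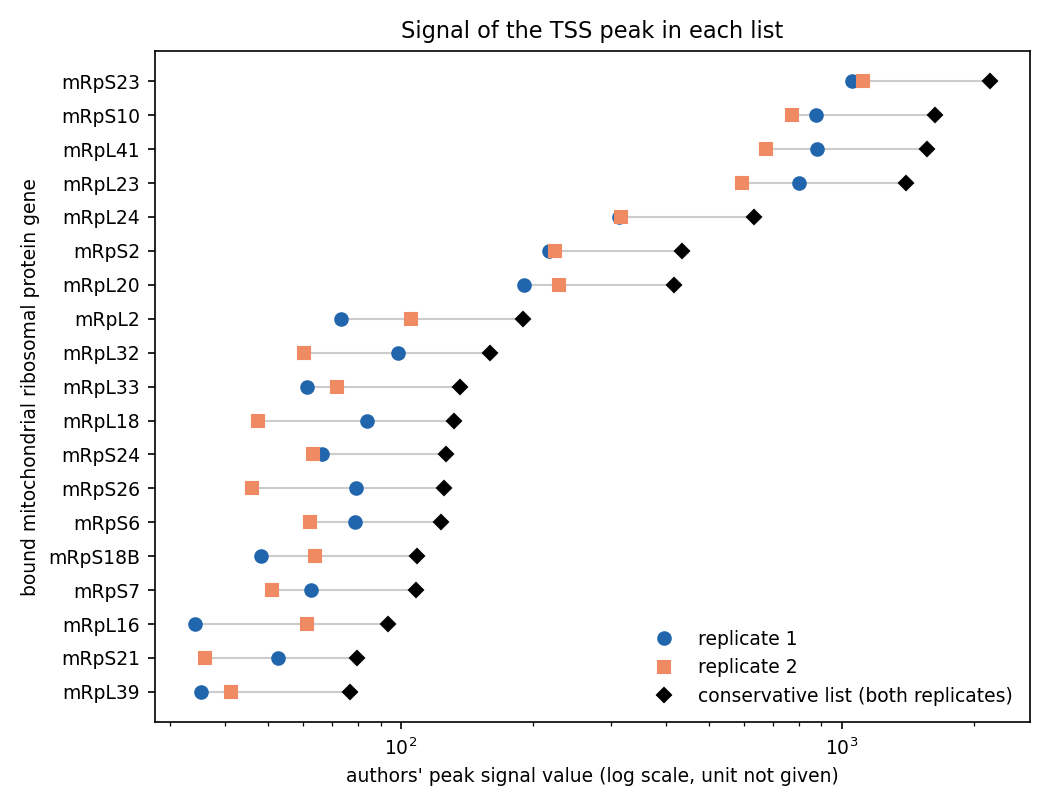
Signal value of the TSS peak of each bound member (horizontal log axis, scale of the authors' caller) in replicate 1 (blue), replicate 2 (orange) and the conservative list (black); grey lines join the values of a gene. The 4 genes at the top have at least 593 in each replicate, and the replicates change order from gene to gene.

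Strength was spread widely over the members. The median signal of the strongest TSS peak was 136 in the 19 bound members (range 76.9 to 2171) and 143 in the 2976 bound others (range 12.5 to 3211). At the upper end, 4 of 19 members (21.1%, Wilson interval 8.51 to 43.3%) had a peak among the 50 strongest of the list, against 45 of 2976 others (1.51%, 1.13 to 2.02%). These 4 members lay at 4 of the 35 peaks among those 50 that were at a TSS. In the strongest 10% of peaks were 7 of 19 members (36.8%) and 13.7% of others, and in the strongest 50% were 57.9% and 56.9%. No test was made of these shares, since only 4 genes carry the upper end and 3 of them share their peak with a neighbour.

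**Figure D4:**
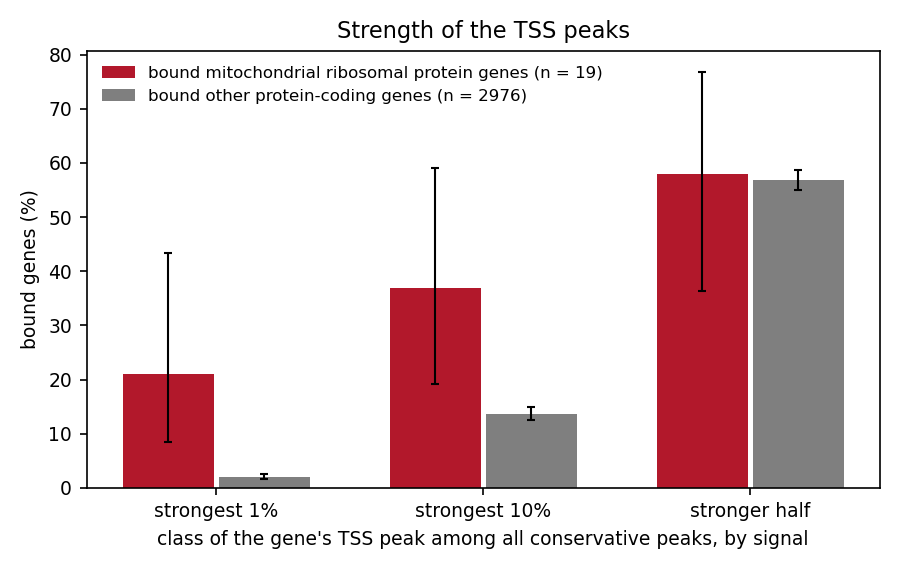
Share of bound genes (vertical axis, percent) whose TSS peak was in the strongest 1%, the strongest 10% or the strongest 50% of the 7157 conservative peaks. Red bars are the 19 bound mitochondrial ribosomal protein genes, grey bars the 2976 bound others, and whiskers 95% Wilson intervals; the bars differ in the upper classes (21.1% and 1.98% in the first) and are close in the last (57.9% and 56.9%).

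Most bound members were bound in the list of each replicate too, but the conservative list was itself selected for agreement between the replicates. With its own thresholded list, replicate 1 had 21 bound members (28.8%, Wilson interval 19.7 to 40.01%, where 17.8% of all protein-coding genes were bound) and replicate 2 had 20 (27.4%, 18.5 to 38.6%, where 23.8% were bound). The share of other genes lay below the interval of the members in replicate 1 and inside it in replicate 2. With other genes weighted to the members' numbers of TSSs and shared promoters, it was 21.9% in replicate 1 and 25.6% in replicate 2. Both weighted shares lie inside the interval of the members. Over the replicates the share was 28.1% ± 0.969 in members and, without weighting, 20.8% ± 4.27 in other genes (SD, n = 2 each). Of the 19 bound members, 16 were bound in both replicates, mRpS21 in replicate 1 only, mRpL16 in replicate 2 only and mRpL39 in neither. Of the 2976 bound others 2016 were bound in both replicates. By the replicates' lists alone, 21.9% of members were bound in both, against 14.8% of other genes. Bound in replicate 1 only were 5 members (6.85%, against 2.97%), and in replicate 2 only 4 (5.48%, against 9.01%). At 19 of the 20 member peaks a summit lay within 100 bp in both ranked lists, and at 88.2% of other TSS peaks.

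Across those 19 peaks, Spearman's rho between the replicates' signals was 0.746 and Pearson's r of log values was 0.962. Both describe peaks that were selected for agreement. Signal in replicate 2 relative to replicate 1 ranged from 0.567 at mRpL18 to 1.80 at mRpL16, with a median of 0.953. The median at other TSS peaks was 1.18. Replicate 2 was the higher one at 9 of the 19 member peaks and at 65.7% of the 2487 others.

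Another 8 members had a TSS peak in a thresholded list but not in the conservative one (11.0%, against 7.66% of other genes). In replicate 1 these were mRpL21 (signal 60.2), beside the reptin gene rept, and the single-promoter genes mRpL4 (54.0), mRpS29 (44.0), whose human counterpart DAP3 is a GTP-binding protein, and mRpS5 (40.6). None of these 4 had a TSS summit in the ranked list of replicate 2. In replicate 2 they were mRpS16 (73.2), beside cg, mRpS14 (51.4), beside Naa15-16, and mRpL53 (40.9), beside the Argonaute gene AGO1 and CG33155. In the other series-level list, mRpS16 was bound too (107), and mRpL43, beside CG30183, had 61.2. That list held 20 bound members (27.4%, where 25.3% of all protein-coding genes were bound), and mRpL39 was not among them. With replicate 1 alone, 4 of 19 single-promoter members were bound (21.1%), and 12.4% of others, so that their low share in the conservative list did not hold there. In replicate 2 it was 1 of 19 (5.26%), and 18.98% of others.

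The remaining 46 members had no thresholded TSS peak. Of these, 15 had a TSS summit in the ranked lists of both replicates (20.5% of all members, against 14.0% of other genes), and 21 in one of them (28.8%, against 18.4%). In neither (13.7% of members, against 38.5% of other genes) were 10 members: mRpL1, mRpL10, mRpL12, mRpL37, mRpL40, mRpL45, mRpS18C, mRpS33, mRpS34 and mRpS35. Ranked lists include peaks that did not reach the authors' threshold. In them 45 of 73 members had a TSS summit in replicate 1 (61.6%, Wilson interval 50.2 to 71.9%, where 47.9% of all protein-coding genes had one) and 55 of 73 in replicate 2 (75.3%, 64.4 to 83.8%, where 54.4% had one), and both intervals lie above the share of other genes. For the ranked lists, other genes were not weighted for shared promoters, which 74.0% of members and 30.6% of others have. The part of promoter class in these differences was not tested. Just outside the window of 500 bp lay mRpS25 (nearest conservative summit 528 bp from the TSS), mRpS31 (541 bp) and mRpL54 (761 bp), and just inside it mRpL33 (496 bp). The median distance from a TSS to the nearest conservative summit was 2815 bp in members and 5723 bp in other genes.

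By chromosome arm the counts were small. Bound members numbered 5 of 12 on 2L (41.7%, against 20.2% of other genes on the arm), 6 of 17 on 3L (35.3%, against 23.0%), 4 of 21 on 3R (19.05%, against 21.2%), 2 of 12 on 2R (16.7%, against 21.5%) and 2 of 11 on X (18.2%, against 22.1%). The Wilson interval on 2L, 19.3 to 68.0%, includes the share of other genes.

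Promoter sequence was examined in windows of 300 bases, from 250 before to 50 after the outermost start of each gene, for 9 words on both strands. They were TATCGATA (bound by DREF), CGATA (BEAF-32), GGTCACAC (M1BP), CAGCNCTA (Ohler 7), GGAA (the core of sites bound by ETS factors), a longer form of that core with one more base, CGGAA, the E-box word CACGTG, the word GAGAG of the GAGA factor, and the TATA box word TATAAA. The BEAF-32 word is contained in the DREF word, and the short ETS core in the long one. GGAA was as common in members as elsewhere: 16 of 19 bound members held it (84.2%), 46 of 54 unbound members (85.2%) and 88.0% of other protein-coding genes. So short a word was in most windows of every group, so that these shares say little about ETS sites. The windows also leave out some summits, such as that of mRpS23, 390 bp upstream. That gene counts as without GGAA, although its stretch shown above holds 2. CGGAA was in 4 of 19 bound members (21.1%), in 15 of 54 unbound members (27.8%) and in 34.8% of others.

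TATCGATA was in 15 of 73 members (20.5%, Wilson interval 12.9 to 31.2%) and in 9.30% of other genes. It was in 6 of the 19 bound members (31.6%, 15.4 to 54.0%), in 9 of the 54 unbound (16.7%, 9.02 to 28.7%) and in 12.5% of bound others. The 6 were mRpS23, which held it in 2 places, mRpL20, mRpL32, mRpS18B, mRpL16 and mRpL39. In these genes the word began between 4 and 32 bases upstream of the start, with a further copy 209 bases upstream in mRpS23. The word lay 15 bases from the summit in mRpL39, 33 bases in mRpS18B and 68 bases in mRpL16. It lay 110 bases away in mRpL32, 252 bases in mRpL20, and 181 and 381 bases in mRpS23. GAGAG was in 12 of 73 members (16.4%, 9.66 to 26.6%), against 29.8% of others.

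CGATA was in 43 of 73 members (58.9%, 47.4 to 69.5%), and the 47.3% of others lay just below that interval. The remaining words had shares of others within the interval of the members: GGTCACAC in 11.0% and 7.67%, CACGTG in 6.85% and 4.18%, TATAAA in 46.6% and 45.8%, CAGCNCTA in 4.11% and 3.56%. Median G and C content of the windows was 34.7% in members and 38.0% in other genes, and its part in these shares was not tested. A word in a window is not evidence of binding by its factor.

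**Figure D5:**
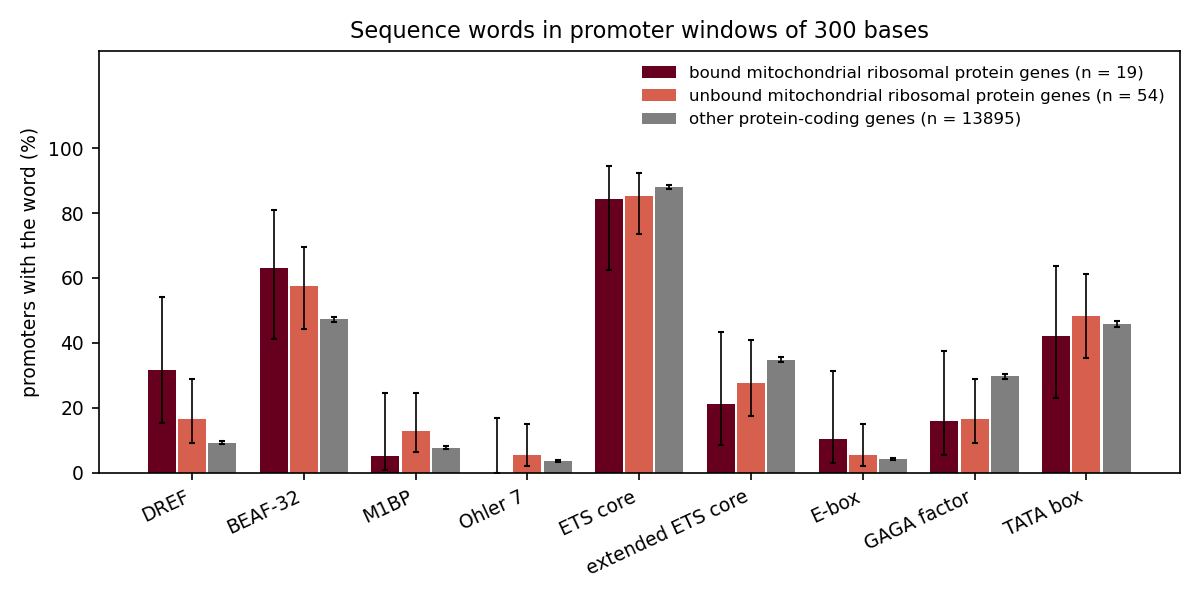
Share of promoter windows (vertical axis, percent) that hold each word, named on the horizontal axis by its factor or element. Dark red bars are the 19 bound members, light red bars the 54 unbound members, grey bars the 13895 other genes, and whiskers 95% Wilson intervals; the DREF word runs from 31.6% through 16.7% to 9.30%, and the ETS core is above 80% in all 3 groups.

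Other lists of mitochondrial DNA maintenance, gene expression and import are small. Their shares bound ran from 0 of 2 to 7 of 19, beside the 21.4% of all protein-coding genes. The ribosomal protein genes tko and bonsai, which the naming rule leaves out, had no TSS peak in any thresholded list. Among 9 mitochondrial translation factor genes 2 were bound (22.2%), mIF2, an initiation factor gene (signal 149.97), and mEFTu2, an elongation factor gene (81.6). Among 15 mitochondrial aminoacyl-tRNA synthetase genes 3 were bound (20%), ArgRS-m (137), ProRS-m (78.3) and CysRS-m (76.8). Among 19 genes of mitochondrial DNA maintenance, transcription and RNA processing 7 were bound (36.8%, Wilson interval 19.1 to 59.0%), led by PNPase (2239), the protease gene Lon (549) and scu (152). Among 15 genes of mitochondrial import and folding 4 were bound (26.7%), led by Tom7 (234), Hsc70-5 (173) and Tim10 (105). At ProRS-m, CysRS-m and Tom7 the TSS of another gene was nearer to the summit. At the other bound genes named from these lists the own TSS was the nearest.

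Set beside larger gene groups of similar function, members lay between the others. The share bound was 26.0% (Wilson interval 17.3 to 37.1%) in mitochondrial ribosomal protein genes, against 16.7% (14 of 84, 10.2 to 26.1%) in nuclear genes of oxidative phosphorylation subunits and 54.8% (51 of 93, 44.7 to 64.6%) in cytosolic ribosomal protein genes. The interval of the members overlaps the first of these and not that of the cytosolic genes. The median signal of bound members was 136, against 132 in bound cytosolic ribosomal protein genes. The highest signals were 742 at ND-ASHI, a complex I gene, and 396 at RpL34b, 359 at RpL32 and 340.2 at RpL7 among the cytosolic genes, all below the 4 strongest members. The summits at ND-ASHI and RpL34b were nearer to the TSS of another gene, and those at RpL32 and RpL7 to the own TSS. A shared promoter was present in 54 of the 73 members, against 41 of the 84 oxidative phosphorylation genes and 38 of the 93 cytosolic genes.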

How the data were processed

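The data were ChIP-seq peak lists of 2 biological replicates of 1 group on the dm6 build, per the labels, which also give sonication to fragments of 200 to 800 bp. As to aligner and peak caller, they were not given in the sources used here. For each peak, the deposited signal value is the authors' own and its scale is not stated. The deposited score is a scaled irreproducible discovery rate (IDR), 830 or more in each thresholded list. Further deposited columns give −log10 of the q-value and, in the replicates' ranked lists, −log10 of the global IDR. The series-level conservative list held 7157 peaks, and thresholded lists held 5851 (replicate 1, 5850 of them on the arms used) and 7963 (replicate 2). The lists give no read counts, so depth is unknown.

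Peaks on the 7 main arms were set against Ensembl 115 genes (BDGP 6.54, dm6 coordinates), and no peak or gene ran past the Release 6 arm lengths. Replicate values of a peak are those of the nearest summit within 100 bp in that replicate's ranked list. Ranked lists of the whole series were not used, nor were 16 value columns of the compared lists in the replicates' ranked lists. Wilson intervals (scipy 1.17.1) cover the counting of genes or peaks only. With 1 group there was no test between conditions, and shares of genes were described beside the share of other genes, without a test. Gene-peak assignment and the word search were checked on simulated data. Of the gene list entries, EF-G2, mtRNApol and JhI-1 were matched by an older symbol, and mTACO1, C12orf65, mtRF1, tam, Tim14 and Tim50 were not matched. All bound members were named, with their neighbours, as were members bound in another thresholded list or 500 to 1000 bp from a summit, and up to 3 genes with the highest signal per further list. Sequence was printed for the 6 strongest members whose summit is outside annotated exons, arm 2R left out. The members and lists were chosen with earlier results of these data known. Alternatives covered the peak list, each replicate alone, the TSS window, stronger peaks, the choice of TSS, and the definition of a shared promoter.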

Additional observations from a re-analysis of the deposited data

How the results depend on the processing

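Of 76 alternative values, 57 stayed within 1.5 times the reported count or within its error. The count of 19 bound members fell to 6 with a window of 100 bp (8.22%, against 9.69% of other genes), to 11 with the strongest 50% of the peaks (15.1%, against 12.2%), to 9 where the own TSS had to be the nearest to a summit (12.3%, against 17.2%) and to 1 at single promoters (5.26%, against 15.9%). The share of members was then above that of other genes only with the strongest 50% of the peaks. The 18 bound members at shared promoters became 6 with the window of 100 bp, 10 with the strongest 50% and 5 with a shared promoter defined by 250 bp. Large-subunit counts fell to 3 with the window of 100 bp, and small-subunit counts to 3 with that window and to 3 with the strongest 50%. With 1 replicate's list, translation factors fell to 1 in either case, synthetases ranged from 1 to 2 and the DNA and RNA list from 4 to 5. In short windows centred on the summits of member peaks, TATCGATA was in 10%, CGATA in 10%, GGAA in 60%, GAGAG in 0% (Wilson upper bound 16.1%) and TATAAA in 15%, beside 2.06%, 17.3%, 50.02%, 19.4% and 15.4% at other TSS peaks; these windows are shorter than the promoter windows. The cause of the other moves was not tested. The ratio of median signals (0.952) and the median distance (137 bp upstream) moved by less than the spread between replicates. That spread is the SD of the values from each replicate alone. Those values are also among the alternatives, so that for them it is no independent measure. The alternatives on the nearest TSS, on genes bound in both replicates and on weighted other genes were added after seeing the data.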

Other observations

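The distance between the starts of a shared promoter differed between bound and unbound members. The median distance to the closest neighbouring start was 302 bp in the 18 bound members with a shared promoter and 131 bp in the 36 unbound ones, against 229 bp in the 1441 bound and 187 bp in the 2814 unbound other genes. Where the starts lay more than 250 and up to 500 bp apart, 13 of 28 members were bound (46.4%, 95% Wilson interval 29.5 to 64.2%), against 36.5% of 1731 others. Where they lay 250 bp apart or less, 5 of 26 members were bound (19.2%, 8.51 to 37.9%), against 32.1% of 2524 others. In replicate 1 the counts were 12 of 28 (42.9%, against 33.5% of others) and 5 of 26 (19.2%, against 27.5%). In replicate 2 they were 11 of 28 (39.3%, against 36.5%) and 8 of 26 (30.8%, against 33.6%), so that there the members lay near the others in both classes. This division was made after the values were seen and was not tested.

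The surroundings of mRpS23 held a gene from the list of mitochondrial DNA maintenance, transcription and RNA processing. PolG2, the gene of the accessory subunit of the mitochondrial DNA polymerase, had a TSS summit at position 13833179 of 2L, and the summit near mRpS23 was at position 13835462. The signal at PolG2 was 67.5 (42.9 in replicate 1 and 33.6 in replicate 2), far below the 2171 near mRpS23. The PolG2 summit served 3 genes, with the TSS of PolG2 the nearest.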
